A study of Mus musculus with 12 samples.

Results

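Cells build cholesterol and fatty acids from acetyl-CoA through a chain of enzymes whose genes are largely under shared control. The 34 genes described here cover this chain and its control, and all 34 were measured among the 19938 genes of the arrays. They were taken from a list of pathway genes, which was chosen with earlier results of these data known. Of the 34, 14 encode enzymes of sterol synthesis, and 5 encode the SREBP transcription factors and the proteins that hold or release them. The other 15 encode enzymes or cofactors of fatty acid synthesis, desaturation, elongation and entry into glycerolipids.

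The study sorted epithelial cells from the mammary glands of female mice aged 10 to 14 weeks and measured their RNA on 12 Affymetrix arrays, 3 in each of 4 groups. Control mice were MMTV::Cre+.Wnt4wt/wt.mT/mG (called WT) and the others MMTV::Cre+.Wnt4fl/fl.mT/mG (called Wnt4-deleted), so that both genotypes carried the Cre transgene and the mT/mG reporter. Cre was driven by the MMTV promoter, which is active in mammary epithelium, and the reporter turns a cell green once Cre has acted, so the sorted GFP+ cells were those in which the reporter had recombined. After lineage depletion, they were divided by the surface protein CD24 into CD24 high cells, labelled luminal, and CD24 low cells, labelled myoepithelial. The labels speak of glands in 1 place and of grafts in another, and they name no mouse for any array. Arrays are called here by the number in their title: 1, 9 and 13 are WT CD24 low, 2, 10 and 14 WT CD24 high, 3, 11 and 15 Wnt4-deleted CD24 low, and 4, 12 and 16 Wnt4-deleted CD24 high. The title numbers fall into 3 sets (1 to 4, 9 to 12 and 13 to 16) that each hold 1 array of every group. The design text of the series mentions 3 independent experiments, but no label ties an array or a set to one of them.

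Sterol synthesis starts with HMG-CoA, runs through mevalonate and the isoprenoids to squalene, and closes squalene into a ring that is then trimmed to cholesterol. Fatty acid synthesis starts with the carboxylation of acetyl-CoA and yields palmitate, which desaturases and elongases convert into longer and unsaturated chains. When membrane sterol is low, the escort protein Scap carries the SREBP precursors from the endoplasmic reticulum to the Golgi, where they are cut and released to act on the genes of both pathways, while the Insig proteins hold them back when sterol is plentiful. In the mammary gland the luminal cells are the ones that make milk fat during lactation, and the myoepithelial cells around them contract.

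The promoters of these genes give a view of shared sequence that does not depend on the arrays. RefSeq windows of the 250 bases before a start site (build GRCm38.p6) were matched by symbol for 28 of the 34 genes. None was matched for Fdps, Fdft1, Sqle, Scd1, Scd2 and Fads1. The CCAAT box, the site of the factor NF-Y that often accompanies SREBP sites, was searched as CCAAT on both strands. With any window of a gene counted, it was found in 23 of 28 genes (82.1%). The share was 37.5% of the 27025 genes with a window and 38.8% of those tested on the arrays. In the windows listed first for each gene, it was found in 21 of 28 genes (75%), against 34.5% of all genes. With any window counted, it was found in 11 of 11 sterol synthesis genes, 4 of 5 SREBP control genes and 8 of 12 fatty acid synthesis genes. A core of the sterol regulatory element, searched as TCACNCCAC on both strands, was found in the window of 1 of 28 genes, Hmgcs1, against 1.22% of all genes with a window. The windows below are those of the genes with a window that differed most between the CD24 fractions in both genotypes. These genes are Msmo1 and Me1 (higher in CD24 high cells) and Elovl5 (lower). Hmgcs1 was added after its match was seen, because it alone of the 28 holds the sterol element core. Capitals mark CCAAT, or ATTGG where it lies on the other strand, and in Hmgcs1 also the sterol element core. Each reads 5′ to 3′ on the strand of its gene and ends at the base before the start site.
Msmo1, chr8:64733579-64733828, minus strand: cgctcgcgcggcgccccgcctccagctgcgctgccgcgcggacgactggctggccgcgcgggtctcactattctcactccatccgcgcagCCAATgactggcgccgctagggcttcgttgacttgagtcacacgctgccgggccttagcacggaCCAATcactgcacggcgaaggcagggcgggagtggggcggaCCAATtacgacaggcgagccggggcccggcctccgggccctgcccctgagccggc
Me1, chr9:86695915-86696164, minus strand: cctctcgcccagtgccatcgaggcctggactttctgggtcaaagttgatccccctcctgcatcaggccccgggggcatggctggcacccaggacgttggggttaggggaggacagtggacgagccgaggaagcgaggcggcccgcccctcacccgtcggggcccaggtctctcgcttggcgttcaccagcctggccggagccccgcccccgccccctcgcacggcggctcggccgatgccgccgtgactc
Elovl5, chr9:77917115-77917364, plus strand: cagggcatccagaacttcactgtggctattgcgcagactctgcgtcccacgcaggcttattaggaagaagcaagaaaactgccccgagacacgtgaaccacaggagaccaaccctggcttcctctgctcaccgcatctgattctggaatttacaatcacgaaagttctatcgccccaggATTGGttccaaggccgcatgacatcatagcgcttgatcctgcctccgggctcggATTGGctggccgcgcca
Hmgcs1, chr13:119690101-119690350, plus strand: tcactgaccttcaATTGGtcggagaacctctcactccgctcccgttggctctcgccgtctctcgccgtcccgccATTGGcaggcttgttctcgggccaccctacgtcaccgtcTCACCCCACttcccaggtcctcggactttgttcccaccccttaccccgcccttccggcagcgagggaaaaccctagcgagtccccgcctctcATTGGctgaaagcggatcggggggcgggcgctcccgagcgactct
Msmo1 and Hmgcs1 held 3 CCAAT boxes each, Elovl5 held 2, and the window of Me1 shown held 0, although a further window of Me1 held the motif. In the windows listed first for each gene, 11 of 28 genes (39.3%) had at least 2 CCAAT boxes, against 10.5% of all genes. Msmo1 and Elovl5 differed in opposite directions between the fractions and both held the box. A match describes the letters of a window and was not tested for binding.

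All levels below are log2 RMA values of 1 probeset per gene, and all changes are differences of group means on that log2 scale, with the SE of the fit. Levels of different genes are not compared, since probesets differ in brightness. The sort was seen in the markers: the mean level of 13 myoepithelial markers was 10.73 to 11.18 in the CD24 low arrays and 6.05 to 6.89 in the CD24 high arrays, and that of 13 general luminal markers was 7.87 to 8.62 and 10.49 to 10.81. Wnt4 itself was at 7.42, 7.92 and 7.62 in the WT CD24 high arrays and at 6.11, 6.46 and 6.78 in the Wnt4-deleted ones, with no overlap, whereas in CD24 low cells the WT range (6.45 to 6.63) lay within the Wnt4-deleted range (6.20 to 6.66). The change of Wnt4 was -1.20 ± 0.19 in CD24 high cells (adjusted p = 0.416) and -0.14 ± 0.19 in CD24 low cells (adjusted p = 1), and where its probeset lies relative to the deleted part of the gene is not known here. Some CD24 low arrays stood apart in markers of other cells: the fibroblast marker mean was 9.02 in array 9 and 8.62 in array 11 against 6.0 to 6.86 in the other CD24 low arrays, the skeletal muscle mean was 7.35 in array 1 and 8.35 in array 3 against 5.18 to 5.61, and the endothelial mean was 8.16 to 9.33 in arrays 9, 11, 13 and 15 against 6.52 and 6.60 in arrays 3 and 1. Their part in the results below was not tested, and calls that were lost without 1 of these arrays are given with that array. The mean level of 8 immune markers was also higher in CD24 low arrays (5.05 to 6.35 against 4.56 to 4.93). Of these, Cd74 alone had an adjusted p under 0.05 in limma (CD24 high minus CD24 low: -3.34 in WT and -3.48 in Wnt4-deleted cells). Cd68, for example, gave -0.01 and -0.36. The mean of the 5 measured hormone-sensing luminal markers was lower in CD24 low arrays (6.66 to 7.28 against 8.95 to 9.33). The part of these markers was not tested either. In such bulk samples, fewer cells of a type and less RNA per cell cannot be told apart.

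Between the fractions, 3 genes were higher in CD24 high than in CD24 low cells in both genotypes: Msmo1, a sterol demethylase, Scd1, the desaturase that makes oleate, and Me1, which supplies NADPH. Elovl5, an elongase of polyunsaturated fatty acids, was lower in CD24 high cells in both genotypes. In WT cells, 4 of the 34 genes passed the test (adjusted p under 0.05 in limma), or 11.8%, where 16.1% of all genes did, and 3 of them were higher (all genes: 7.93%) and 1 lower (all genes: 8.21%). In Wnt4-deleted cells 7 of 34 passed, or 20.6%, against 16.4% of all genes, with 6 higher (8.23%) and 1 lower (8.22%). Passing in both genotypes in the same direction were 4 of 34 genes, against 12.4% of all genes. The share of these genes that passed was therefore near that of the genome in either genotype. The direction was less even: 26 of 34 changes were positive in WT and 30 of 34 in Wnt4-deleted cells, where 53.7% and 51.1% of all genes were, and the median change of the 34 was 0.19 and 0.49, against 0.02 and 0.01 over all genes. Arrays did not overlap for 5 higher and 3 lower genes in WT (all genes: 17.1% and 15.7%) and for 13 higher and 1 lower in Wnt4-deleted cells (all genes: 15.1% and 14.2%).

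**Figure D1:**
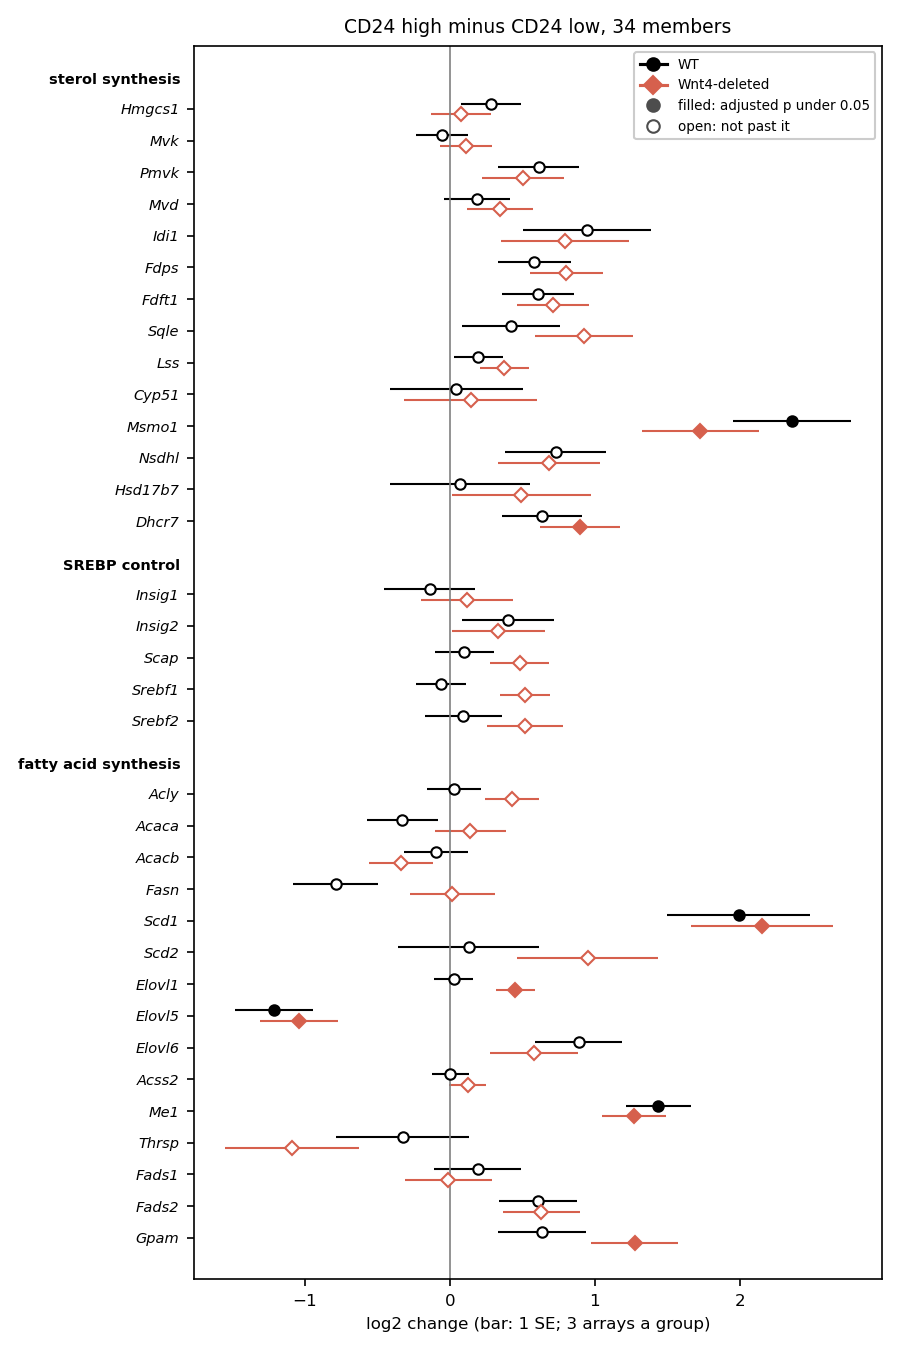
Change between the fractions for each of the 34 genes, as CD24 high minus CD24 low on the log2 axis with a bar of 1 SE, in WT (black circles) and Wnt4-deleted cells (red diamonds), filled where the adjusted p was under 0.05. Msmo1, Scd1 and Me1 lie to the right and Elovl5 to the left in both genotypes, while most other genes lie between 0 and 1 with open symbols.

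Sterol synthesis showed the most even direction, with 13 of 14 changes above 0 in WT and 14 of 14 in Wnt4-deleted cells. The medians were 0.50 and 0.59, although 1 of 14 passed in WT and 2 of 14 in Wnt4-deleted cells (all genes: 16.1% and 16.4%). In WT, 6 of 14 were above 0 within arrays 1 to 4, 13 within arrays 9 to 12 and 14 within arrays 13 to 16. The 14 genes moved together between arrays of a group (mean pairwise r of 0.62), so they are not 14 separate observations of direction. Msmo1 was at 5.33, 5.45 and 6.07 in WT CD24 low cells (arrays 1, 9 and 13) and at 7.04, 8.14 and 8.74 in WT CD24 high arrays 2, 10 and 14. In Wnt4-deleted cells it was at 6.11, 5.31 and 6.34 in CD24 low cells (arrays 3, 11 and 15) and at 7.40, 7.55 and 8.0 in CD24 high arrays 4, 12 and 16. All 6 CD24 high arrays thus lay above all 6 CD24 low arrays. The rise was 2.36 ± 0.41 (5.13-fold, adjusted p = 0.00209) in WT and 1.73 ± 0.41 (3.31-fold, adjusted p = 0.013) in Wnt4-deleted cells. It passed in WT cells under every alternative run, and in Wnt4-deleted cells it was lost without array 11 or without array 16 (adjusted p up to 0.0593). The files carry no detection calls, so whether Msmo1 was above background in CD24 low cells is not known here and its fold holds for the measured values only.

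Dhcr7, which reduces 7-dehydrocholesterol to cholesterol, was the other sterol gene to pass, in Wnt4-deleted cells. Its CD24 low values were 5.8, 5.90 and 5.55 (arrays 3, 11 and 15) and its CD24 high values 6.97, 6.36 and 6.61 (arrays 4, 12 and 16), which did not overlap, and the change was 0.90 ± 0.27 (adjusted p = 0.0458). In WT cells CD24 low values of 5.89, 6.01 and 6.20 stood against 5.93, 7.09 and 6.98, so that array 2 fell among the CD24 low arrays, and the change was 0.64 ± 0.27 (adjusted p = 0.162). Dhcr7 passed in WT cells with array weights, over arrays 9 to 16 only and without array 2. The difference between the genotypes in the change of Dhcr7 was not past the test (-0.26 ± 0.39 as coded, WT minus Wnt4-deleted, adjusted p = 1). The call in Wnt4-deleted cells was lost under 10 of 22 alternatives, namely without array 1, 3, 4, 9, 11, 12, 13, 15 or 16 and with the sets of title numbers as a fixed block (adjusted p from 0.051 to 0.153, 0.0549 with the block).

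The other 12 sterol genes did not pass in either genotype in the main fit. Along the chain, the early enzymes gave small values: Hmgcs1, which makes HMG-CoA, 0.28 in WT and 0.08 in Wnt4-deleted cells, Mvk, the mevalonate kinase, -0.05 and 0.11, and Mvd, the mevalonate diphosphate decarboxylase, 0.19 and 0.35. Pmvk, the kinase that acts between these, gave 0.61 and 0.50. The isoprenoid and squalene enzymes gave 0.95 and 0.80 for the isomerase Idi1, 0.58 and 0.80 for farnesyl diphosphate synthase Fdps, 0.61 and 0.71 for squalene synthase Fdft1 and 0.42 and 0.92 for the epoxidase Sqle. Of these, Fdps came closest to the threshold, with an adjusted p of 0.0516 in Wnt4-deleted cells. It passed there with the dimmest genes left out, median centring, repeated quantile normalisation, array weights or a random block. Fdps also passed there over arrays 9 to 16 only and without array 2, 3 or 14. Fdft1 passed there with the mean of its probesets and with the sets as a fixed block (adjusted p = 0.0483). Fdft1 and Sqle both passed there over arrays 9 to 16 only and without array 3, and Sqle also with array weights. Pmvk passed there without array 2. In WT cells, Pmvk, Idi1 and Fdps passed with array weights, over arrays 9 to 16 only and without array 2, and Fdft1 with array weights. After ring closure, the cyclase Lss gave 0.20 and 0.38, the lanosterol demethylase Cyp51 0.05 and 0.14, Nsdhl, which acts after Msmo1, 0.73 and 0.68, and the ketoreductase Hsd17b7 0.07 and 0.49. Msmo1, Nsdhl and Hsd17b7 work in succession on the same methyl groups, and Msmo1 alone among them passed in the main fit. Nsdhl passed in WT cells with array weights and without array 2.

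The 5 SREBP control genes passed in neither genotype (limma), with median changes of 0.09 and 0.48. At an unadjusted p under 0.05 (limma) there were 0 of 5 in WT and 2 of 5 in Wnt4-deleted cells, both higher. Of all 19938 genes, 2749 were higher and 2510 lower at that threshold in WT, and 2903 and 2650 in Wnt4-deleted cells. Srebf1, the factor more tied to fatty acid genes, was at 7.95, 8.16 and 8.14 in WT CD24 low and 7.75, 8.18 and 8.14 in WT CD24 high arrays, which overlapped. In Wnt4-deleted cells it was at 7.68, 7.72 and 7.20 in CD24 low and at 7.87, 8.25 and 8.04 in CD24 high arrays, with no overlap. The changes were -0.06 ± 0.17 in WT (adjusted p = 0.896) and 0.52 ± 0.17 in Wnt4-deleted cells (adjusted p = 0.0677). The latter passed with the sets as a fixed block (adjusted p = 0.0497), with median centring, with array weights, without array 2 and over arrays 9 to 16 only.

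Srebf2, the factor more tied to sterol genes, was at 9.42, 9.28 and 9.09 in WT CD24 low, 9.15, 9.49 and 9.45 in WT CD24 high, 9.37, 8.59 and 8.06 in Wnt4-deleted CD24 low and 9.02, 9.26 and 9.29 in Wnt4-deleted CD24 high arrays. The fractions overlapped in both genotypes, with changes of 0.09 and 0.52 (adjusted p = 0.892 and 0.236). Scap was at 8.84, 8.78 and 8.72 in WT CD24 low and 8.93, 8.83 and 8.89 in WT CD24 high arrays, and at 9.06, 8.49 and 8.03 against 9.01, 9.13 and 8.89 in Wnt4-deleted cells. Its changes were 0.10 and 0.48. In Srebf2 and Scap alike, array 3 was the highest and array 15 the lowest of the Wnt4-deleted CD24 low arrays, and in Wnt4-deleted cells both genes passed without array 3 and over arrays 9 to 16 only.

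Insig1, itself a known SREBP target, was at 8.07, 8.18 and 8.18 in WT CD24 low and 7.23, 8.07 and 8.72 in WT CD24 high arrays. In Wnt4-deleted cells it was at 7.97, 7.76 and 7.18 against 7.91, 7.71 and 7.65. The 3 WT CD24 high arrays lay on both sides of the WT CD24 low arrays, and the changes were -0.14 and 0.12. Insig2, the second retention protein, was at 7.21, 7.75 and 7.60 against 7.34, 7.81 and 8.60 in WT and at 7.79, 7.26 and 8.19 against 7.94, 7.91 and 8.41 in Wnt4-deleted cells, with changes of 0.40 and 0.33.

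The fatty acid genes differed most among themselves. In Wnt4-deleted cells Scd1, Gpam and Me1 stood at the upper end, and Elovl5 and Thrsp at the lower end. Of 15 genes, 3 passed in WT and 5 in Wnt4-deleted cells (all genes: 16.1% and 16.4%), and the medians were 0.03 and 0.43.

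Scd1 was at 8.27, 9.11 and 7.60 in WT CD24 low and 9.23, 10.95 and 10.75 in WT CD24 high arrays, and at 9.04, 8.28 and 7.75 against 10.25, 10.54 and 10.74 in Wnt4-deleted cells. All CD24 high arrays lay above all CD24 low arrays, array 2 being the lowest of the former and array 9 the highest of the latter. It rose by 1.99 ± 0.49 (3.97-fold, adjusted p = 0.0172) in WT and by 2.15 ± 0.49 (4.45-fold, adjusted p = 0.0113) in Wnt4-deleted cells. The WT call was lost without array 1, 10, 13 or 14 (adjusted p up to 0.0766), whereas the call in Wnt4-deleted cells held under every alternative run. Its paralog Scd2, with 1 gene between them on chromosome 19, gave 0.13 ± 0.49 and 0.95 ± 0.49, neither past the test.

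Me1 was at 7.25, 7.09 and 7.09 in WT CD24 low and at 8.09, 8.83 and 8.83 in WT CD24 high arrays. The Wnt4-deleted arrays gave 7.66, 7.13 and 7.49 against 8.63, 8.46 and 9.01, again without overlap. Its rise of 1.44 ± 0.22 (2.71-fold, adjusted p = 0.00102) in WT and 1.27 ± 0.22 (2.42-fold, adjusted p = 0.00222) in Wnt4-deleted cells passed under every alternative run, with adjusted p up to 0.00627 and 0.0128.

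Elovl5 ran the other way. It was at 9.55, 9.44 and 9.81 in WT CD24 low and 7.72, 8.49 and 8.95 in WT CD24 high arrays, and at 9.55, 9.71 and 9.82 against 8.97, 8.35 and 8.64 in Wnt4-deleted cells, so that all 6 CD24 high arrays lay below all 6 CD24 low arrays. It fell by 1.21 ± 0.27 (2.32-fold, adjusted p = 0.0099) in WT and by 1.04 ± 0.27 (2.06-fold, adjusted p = 0.0221) in Wnt4-deleted cells. The WT call held under every alternative run and that in Wnt4-deleted cells was lost without array 11, 12, 15 or 16 (adjusted p up to 0.0829).

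**Figure D2:**
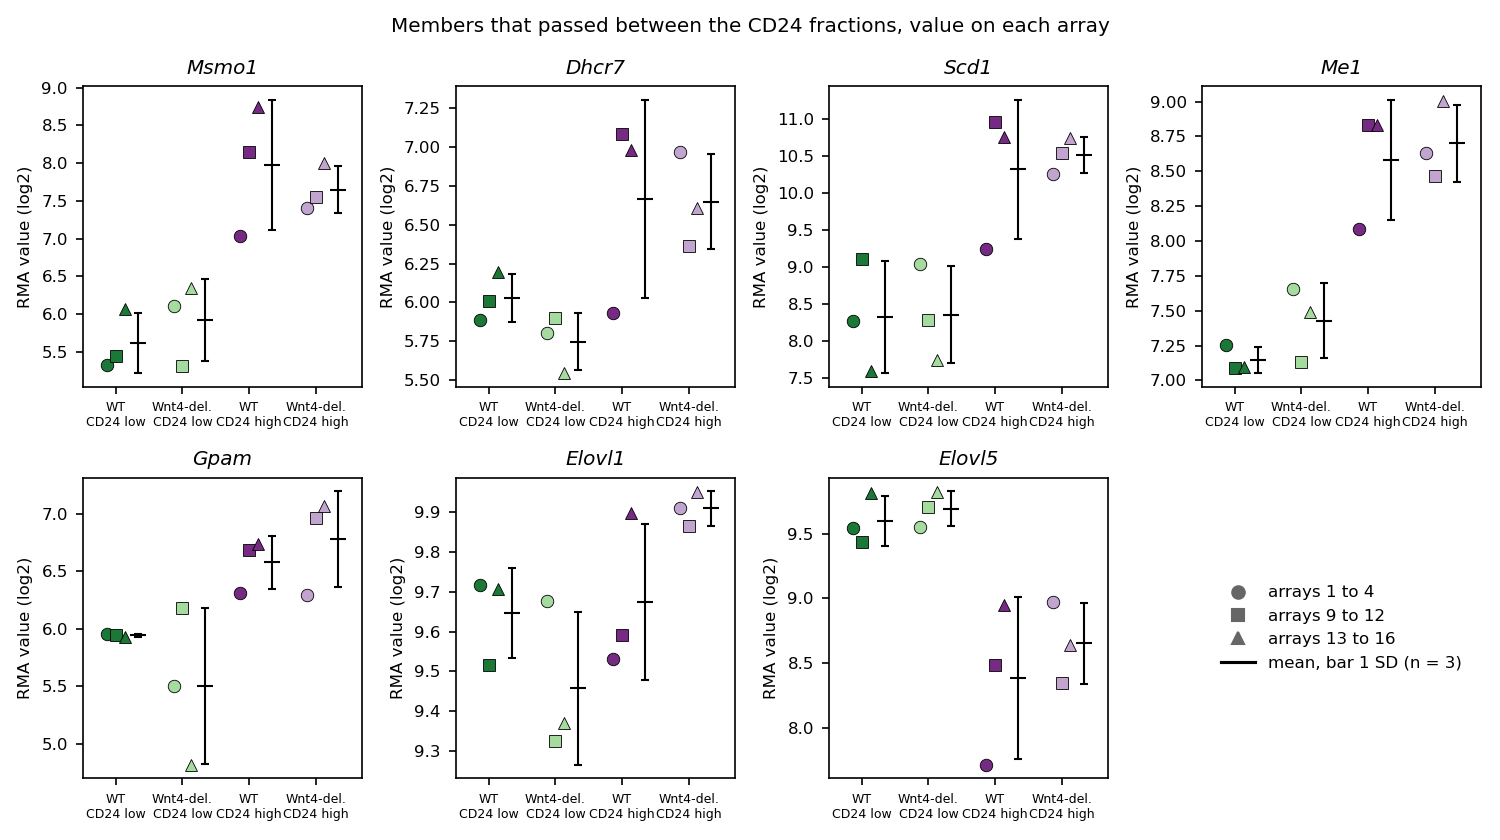
Level on each array (log2 RMA value) of the 7 genes that passed between the CD24 fractions in at least 1 genotype, by group, with symbols for the 3 sets of title numbers and a bar for the mean and 1 SD of 3 arrays. Msmo1, Scd1, Me1 and Gpam have all CD24 high arrays above all CD24 low arrays, Elovl5 has them below, and the WT CD24 high array 2 is the lowest of its 3 in all 7 panels.

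Gpam, which starts glycerolipid synthesis from fatty acyl-CoA, was at 5.96, 5.94 and 5.93 in WT CD24 low and 6.31, 6.69 and 6.73 in WT CD24 high arrays, a change of 0.64 ± 0.30 (adjusted p = 0.212). Gpam passed in WT cells with array weights and with only the groups compared. In Wnt4-deleted cells it was at 5.51, 6.18 and 4.82 against 6.30, 6.97 and 7.07, and it rose by 1.28 ± 0.30 (2.42-fold, adjusted p = 0.0136). Its arrays did not overlap between fractions in either genotype, as for Msmo1, Scd1 and Me1, so that 4 of 34 genes had all CD24 high arrays above all CD24 low arrays (all genes: 8.19%) and 1 had them below (all genes: 8.33%). Elovl1, an elongase of saturated chains, passed in Wnt4-deleted cells, with 9.68, 9.32 and 9.37 in CD24 low and 9.91, 9.87 and 9.95 in CD24 high arrays (0.45 ± 0.14, adjusted p = 0.0426), and gave 0.03 ± 0.14 in WT cells (adjusted p = 0.942). For neither gene did the change differ between genotypes past the test (adjusted p = 1), and both calls depended on the arrays used. The Elovl1 call was lost under 11 of 22 alternatives, namely without array 1, 4, 9, 10, 11, 12, 13, 15 or 16, with an intensity trend and with only the groups compared (adjusted p from 0.0511 to 0.14). The Gpam call was lost without array 12 or 16 and with only the groups compared (adjusted p = 0.0516, 0.0631 and 0.0821), and whether Gpam was above background in CD24 low cells is not known here.

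In WT cells, the measured changes of Fasn and Acaca, which build palmitate, were opposite in sign to that of Scd1. Fasn, the fatty acid synthase, was at 8.82, 8.95 and 8.69 in WT CD24 low arrays and at 7.65, 8.10 and 8.36 in WT CD24 high arrays, without overlap, with a change of -0.79 ± 0.29 that was not past the test (adjusted p = 0.1). In Wnt4-deleted cells the change of Fasn was 0.02 ± 0.29 (adjusted p = 0.982). Acaca, the carboxylase that makes malonyl-CoA, likewise had its WT CD24 high arrays (7.89 to 7.98) below its WT CD24 low arrays (8.19 to 8.33), with a change of -0.33 (adjusted p = 0.473), against 0.14 in Wnt4-deleted cells (adjusted p = 0.783), where it passed higher without array 3. Its mitochondrial counterpart Acacb gave -0.09 and -0.34, the citrate lyase Acly 0.03 and 0.43 and the acetate-activating Acss2 0.00 and 0.12. None of these passed in the main fit to all 12 arrays. Fasn passed lower in WT cells with array weights, with only the groups compared, without array 3 and without array 15. Acly had no overlap between fractions in Wnt4-deleted cells (adjusted p = 0.155).

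Among the remaining genes, Elovl6, which elongates palmitate, gave 0.89 in WT (adjusted p = 0.0724) and 0.58 in Wnt4-deleted cells. In WT cells it passed with the dimmest genes left out, repeated quantile normalisation or array weights. It also passed there over arrays 9 to 16 only and without array 2, 3 or 11. The adjacent desaturases Fads1 and Fads2 on chromosome 19 gave 0.19 and 0.61 in WT and -0.01 and 0.63 in Wnt4-deleted cells. Fads2 passed in WT cells with array weights, over arrays 9 to 16 only and without array 2. Thrsp, a lipogenic cofactor, gave -0.32 and -1.09 ± 0.46 (adjusted p = 0.145 in Wnt4-deleted cells). Thrsp passed in Wnt4-deleted cells with array weights, over arrays 9 to 16 only and without array 3. Its Wnt4-deleted CD24 low arrays were at 5.46, 7.46 and 7.23, so that array 3 fell among the CD24 high arrays and arrays 11 and 15 lay above them.

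Genes of neighbouring pathways were read from lists by role. Of 62 listed names, 49 were measured and 13 were not analysed here. The 49 were tested in the main fit only. Between the fractions 3 of 49 passed higher and 3 lower in WT cells (all genes: 7.93% and 8.21%), and 11 higher and 2 lower in Wnt4-deleted cells (all genes: 8.23% and 8.22%), with medians of 0.09 and 0.23. By list, 1 of 5 other sterol synthesis genes passed in both genotypes (all genes: 12.4%). It was Tm7sf2, a sterol reductase (0.51 and 0.70, adjusted p = 0.0473 in WT and 0.00973 in Wnt4-deleted cells). Of 10 genes of sterol uptake, export and control, Abca1, a cholesterol exporter, passed lower in WT cells (-1.22, adjusted p = 0.0212) and gave -0.92 in Wnt4-deleted cells, while the exporter Abcg1 passed higher in Wnt4-deleted cells (1.02, adjusted p = 0.0121) and gave 0.39 in WT cells. Of 21 other genes of fatty acid synthesis and activation, 2 passed lower in both genotypes, the elongase of very long chains Elovl4 and the dehydratase Hacd1 (-1.28 and -1.57), and 3 passed higher in Wnt4-deleted cells, the elongase Elovl7 (2.17), the acyl-CoA synthetase Acsl5 (0.88) and the transcription factor Mlx (0.53).

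Elovl4 was at 8.70, 7.59 and 8.11 in WT CD24 low and 3.66, 3.16 and 4.17 in WT CD24 high arrays, and at 8.65, 6.82 and 7.44 against 4.26, 3.62 and 3.57 in Wnt4-deleted cells. On the log2 scale it fell by 4.47 ± 0.44 in WT (adjusted p = 4.7e-05) and by 3.82 ± 0.44 in Wnt4-deleted cells (adjusted p = 0.00015). No fold is given, since its CD24 high values are low and whether they were above background is not known here. The elongases thus differed in direction between fractions, Elovl4 and Elovl5 passing lower in both genotypes and Elovl1 and Elovl7 higher in Wnt4-deleted cells.

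In glycerolipid assembly, 2 of 10 genes passed higher in both genotypes (all genes, either direction: 12.4%). They were the acyltransferase Gpat3 (0.68 and 0.96, adjusted p = 0.0457 in WT) and the phosphatidate phosphatase Lpin2 (1.04 and 1.55). In Wnt4-deleted cells 4 of 10 passed higher (all genes: 8.23%), the others being Agpat2 (0.52) and Dgat2, the last step to triglyceride (1.63). In WT cells Agpat2 gave 0.20 and Dgat2 0.91, neither past the test (adjusted p = 0.474 and 0.0794 in limma). Of 3 genes of NADPH supply 0 passed in WT and 2 in Wnt4-deleted cells (limma; all genes: 16.1% and 16.4%). These were Pgd and Tkt of the pentose phosphate pathway, Tkt being near the threshold (adjusted p = 0.0498). Pgd gave 0.73 in WT and 1.40 in Wnt4-deleted cells and Tkt 0.89 and 1.29, while Idh1 gave -0.63 and -0.54. At an unadjusted p under 0.05 (limma) the WT count was 2, both higher, where 2749 of all 19938 genes were higher.

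Markers of other lipid-making cells were read beside these values. The mean level of the 10 measured adipocyte markers was 5.76 to 6.58 in the CD24 low arrays and 5.38 to 5.84 in the CD24 high arrays. The defining adipocyte genes Adipoq, Plin1 and Cidec did not differ past the test, with Adipoq means of 3.42 to 3.78 in the 4 groups, although in Wnt4-deleted cells Adipoq (-0.36, adjusted p = 0.104) and Lep (-0.52, adjusted p = 0.14) were lower in CD24 high arrays without overlap. Fabp4, which endothelial cells also express, reached 11.04, 11.93, 11.13 and 11.66 on the CD24 low arrays numbered 9, 11, 13 and 15, whereas arrays 1 and 3 gave 8.48 and 8.45, and its changes were -2.39 ± 1.1 in WT (adjusted p = 0.196) and -2.48 ± 1.1 in Wnt4-deleted cells (adjusted p = 0.167). Of the 10 markers, Slc2a4 was lower in CD24 high cells in both genotypes (-2.07 in WT, adjusted p = 0.00068) and Lipe passed higher in WT cells (1.08, adjusted p = 0.0495). The mean of 8 sebocyte markers was 4.30 to 4.51 in the CD24 low and 4.45 to 4.66 in the CD24 high arrays, and of these Cidea passed higher in both genotypes (1.25 and 0.92, adjusted p = 0.0108 and 0.0472) and Awat2 in Wnt4-deleted cells (0.53, adjusted p = 0.0126). The mean luminal progenitor level was 6.79 to 8.01 and 9.84 to 11.03, so it moved with the sort as the general luminal markers did. The part of these markers in the changes of the lipid genes was not tested.

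The size of the fraction difference varied with the set of arrays. Within arrays 1 to 4, the median change of the 34 genes was -0.04 in WT and 0.20 in Wnt4-deleted cells, within arrays 9 to 12 it was 0.35 and 0.53, and within arrays 13 to 16 it was 0.58 and 0.64. For the 14 sterol genes the WT medians were -0.04, 0.47 and 1.05 in the same order. In every set, 12 genes were higher in the WT CD24 high array, Msmo1, Scd1, Me1 and Gpam among them, and 3 were lower, namely Acaca, Fasn and Elovl5, where 24.5% of all genes were higher and 22% lower in every set. In Wnt4-deleted cells, 21 were higher in every set (all genes: 27.5%) and 2 lower (all genes: 24.3%), namely Acacb and Elovl5. Over arrays 9 to 16 alone, 10 of 34 genes passed in WT (all genes: 17%) and 14 in Wnt4-deleted cells (all genes: 18%). Leaving out array 2 alone gave 11 genes passing in WT cells (all genes: 15%) and a median change of 0.50, the added genes being Pmvk, Idi1, Fdps, Nsdhl, Dhcr7, Elovl6 and Fads2.

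The sterol genes moved together between arrays of the same group. With each group's mean removed, the mean pairwise correlation over the 12 arrays was 0.62 among the 14 sterol genes, 0.38 among the 5 SREBP control genes, 0.21 among the 15 fatty acid genes, 0.37 among all 34 and 0.008 among all genes tested. These are descriptions over arrays that share normalisation, amplification and 4 group means. Quantile normalisation keeps arrays alike over all genes, so the 0.008 is low in part by construction and is no baseline for a list. Cyp51, Hsd17b7 and Fdps followed the other 13 sterol genes most closely (mean r of 0.77, 0.77 and 0.76) and Fdft1 the least (0.30). None of these passed between the fractions in the main fit, and Msmo1, which did, had a mean r of 0.62.

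The mean level of the 14 sterol genes ran from 6.63 to 7.77 over the WT CD24 high arrays, from 6.16 to 6.88 over the Wnt4-deleted CD24 low arrays and from 6.61 to 6.73 over the WT CD24 low arrays. Array 2 held the lowest of the 3 values for 13 of 14 sterol genes and for 30 of 34 genes in all. Of all genes tested, it was lowest for 34.2% and highest for 48%, so it was often at an end of the 3 there too. Array 14 held the highest value for 13 of 14 sterol genes (all genes: 31.1%). In WT CD24 high cells Cyp51 ran from 6.68 in array 2 over 7.54 in array 10 to 8.56 in array 14, and Hsd17b7 from 5.86 over 6.84 to 7.81. Among the Wnt4-deleted CD24 low arrays, array 3 was highest for 12 of 14 sterol genes (all genes: 36.6%) and array 11 lowest for 12 of 14 (all genes: 34.4%), with Sqle at 8.50 and 7.04. Array 11 also had the highest endothelial marker mean (9.33) and array 3 the highest skeletal muscle mean (8.35), and the part of these cells in the sterol values was not tested. Array 2 had a fibroblast mean of 5.70, an endothelial mean of 5.25 and a skeletal muscle mean of 5.29, where the CD24 high arrays ranged from 5.58 to 6.15, from 5.04 to 6.38 and from 5.01 to 5.29. Its luminal progenitor mean was 9.84, against 11.03 in array 10 and 10.95 in array 14, and all 7 progenitor markers were lowest in array 2 of the 3, with the receptor Kit at 8.85 against 10.63 and 10.10. The general luminal mean of array 2 was 10.49, also the lowest of the 3, against 10.64 in array 10 and 10.75 in array 14. The part of progenitor or other luminal cells in the values of array 2 was not tested.

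**Figure D3:**
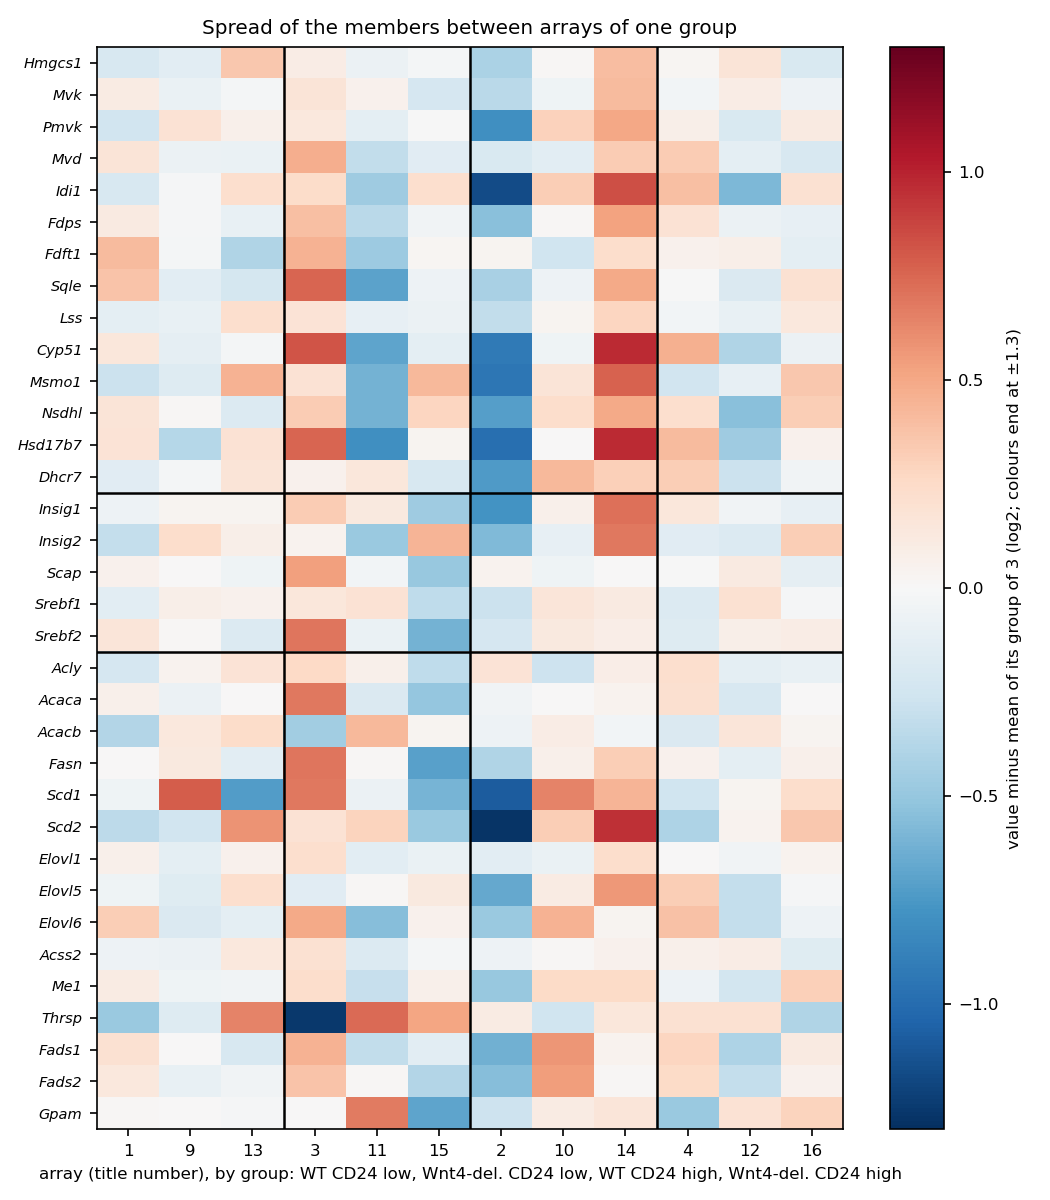
Each cell gives the level of a gene on an array minus the mean of the 3 arrays of its group (log2, red above and blue below, colours ending at ±1.3), with genes in rows by role and arrays in columns by group. Array 2 is blue and array 14 red across most sterol rows of WT CD24 high cells, and arrays 3 and 11 form a similar pair in Wnt4-deleted CD24 low cells.

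Deletion of Wnt4 was compared with WT within each fraction, and 0 of 34 genes passed in the CD24 low fraction and 0 of 34 in the CD24 high fraction (limma). Of all genes, 0.00502% passed in each, which is 1 gene. In CD24 low cells 9 of 34 changes were above 0 (all genes: 45.4%), with a median of -0.20 where that of all genes was -0.02. At an unadjusted p under 0.05 there were 5 of 34 genes (all genes: 3.06%), with 5 lower (1.94%) and 0 higher (1.12%). They were Srebf1, Srebf2, Acaca, Fasn and Acly, which are the SREBP factors and the enzymes from citrate to palmitate, and all had an adjusted p of 1.

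Srebf1 and Acaca had the smallest unadjusted p of the 34. The CD24 low levels of Srebf1 were 7.95, 8.16 and 8.14 in WT and 7.68, 7.72 and 7.20 in Wnt4-deleted arrays, which did not overlap, and the change was -0.55 ± 0.17 (unadjusted p = 0.00913 in limma, adjusted p = 1). Acaca was at 8.33, 8.19 and 8.27 in WT and at 8.31, 7.44 and 7.12 in Wnt4-deleted arrays, a change of -0.64 ± 0.24 (unadjusted p = 0.0233 in limma, adjusted p = 1). In Acaca, array 3 lay among the WT arrays and arrays 11 and 15 below them, and the change was -0.98 without array 3 and -0.39 without array 15. Fasn had the same order, with 8.82, 8.95 and 8.69 in WT against 8.80, 8.12 and 7.40, and a change of -0.71 ± 0.29. For Acly the change was -0.43 ± 0.18 and for Srebf2 -0.59 ± 0.26, with array 3 the highest of the Wnt4-deleted arrays in both. Without overlap between genotypes were 3 of 34 genes, Srebf1, Insig1 and Scd2, all lower (all genes: 4.12%), while 0 were higher without overlap (all genes: 2.65%).

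By set, the median genotype change of the 34 genes in CD24 low cells was 0.04 within arrays 1 to 4, -0.40 within arrays 9 to 12 and -0.32 within arrays 13 to 16. Lower in every set were 10 genes (all genes: 13.8%), with Srebf1 at -0.27, -0.44 and -0.94 and Fasn at -0.02, -0.84 and -1.28. Higher in every set were 3 (all genes: 11.5%), Elovl5, Me1 and Thrsp. Thrsp had the largest positive value of all 34 (0.90 ± 0.46, unadjusted p = 0.0763 in limma), from 5.34, 5.65 and 6.46 in WT arrays, which overlapped the Wnt4-deleted ones.

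**Figure D4:**
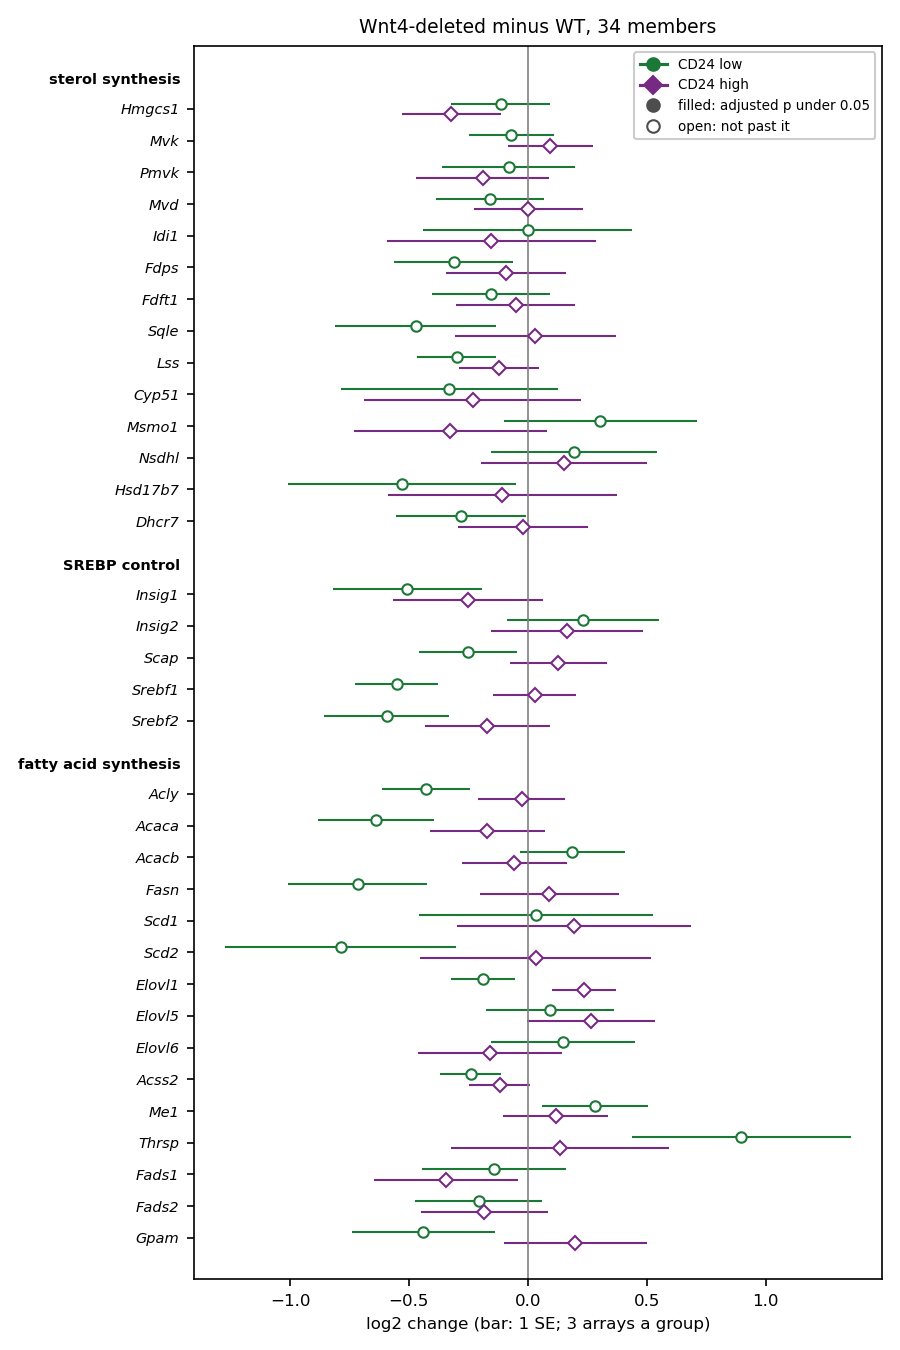
Change with Wnt4 deletion for each of the 34 genes, as Wnt4-deleted minus WT on the log2 axis with a bar of 1 SE, in CD24 low (green circles) and CD24 high cells (purple diamonds), with open symbols for an adjusted p of 0.05 or more. All symbols are open, and in CD24 low cells the values of Srebf1, Srebf2, Acly, Acaca and Fasn lie between -0.43 and -0.71.

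In CD24 high cells the 34 changes ran from -0.34 to 0.27 around a median of -0.04 (all genes: -0.03), and 15 of 34 were above 0 (all genes: 43.4%). At an unadjusted p under 0.05 the count was 0 of 34, against 1.99% of all genes, and 0 of 34 genes had arrays without overlap (all genes: 2.04% higher and 4.97% lower). Elovl1 and Hmgcs1 had the smallest unadjusted p. Elovl1 was at 9.53, 9.59 and 9.90 in WT and at 9.91, 9.87 and 9.95 in Wnt4-deleted arrays (0.24 ± 0.14, unadjusted p = 0.109 in limma). Hmgcs1 was at 7.36, 7.78 and 8.17 in WT and at 7.47, 7.62 and 7.25 in Wnt4-deleted arrays (-0.32 ± 0.21, unadjusted p = 0.151 in limma), so that the groups overlapped in both genes, and the change of Hmgcs1 was -0.53 without array 2 and -0.12 without array 14. The median within sets was 0.53 for arrays 1 to 4, -0.21 for arrays 9 to 12 and -0.27 for arrays 13 to 16, which differ in sign, and the first of these contains array 2. Fitted without array 2, the median change was -0.20, and without array 14 it was 0.15. Higher in every set were 2 genes, Scap and Elovl1 (all genes: 7.22%), and lower was 1, Srebf2 (all genes: 12.2%).

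The genotype change was also compared between fractions, as CD24 low minus CD24 high. Of the 34 genes 0 passed (limma), as did 0 of all genes, and at an unadjusted p under 0.05 there were 2 (all genes: 1.37%), Srebf1 and Elovl1, both with a negative difference (all genes: 0.602%). The change of Srebf1 was -0.55 in the CD24 low and 0.03 in the CD24 high fraction, a difference of -0.58 ± 0.25 (unadjusted p = 0.0387 in limma, adjusted p = 1). Elovl1 gave -0.19 and 0.24, a difference of -0.43 ± 0.19 (unadjusted p = 0.0482 in limma, adjusted p = 1). The same quantity is, by construction, the WT minus the Wnt4-deleted change between the fractions, so it adds no separate evidence for those.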

How the data were processed

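Total RNA of GFP+ mammary cells in 4 groups of 3 samples was extracted with Trizol, amplified with the Ovation Pico WTA kit, labelled with biotin through FL-Ovation and hybridised to Affymetrix gene arrays, 1 per sample. Per the submitters' processing notes, the authors ran Affymetrix Expression Console 1.1.2800 with RMA, which corrects background, normalises by quantiles and summarises probes. The deposited values lie on its log2 scale and run from 1.62 to 13.80. The genome build and detection calls are not given in the sources used here.

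Of 35556 probesets, 21789 carried a single gene symbol and were kept, while 1621 with several symbols and 12146 without an entry were left out. For 999 genes with more than 1 probeset, 4 of the 34 among them, the brightest on average was taken, giving 19938 genes. Tests used limma 3.58.1 in R 4.3.3 (lmFit, eBayes; 4 group means over 12 arrays, 8 residual degrees of freedom, 11.05 after moderation), two-sided, with Benjamini-Hochberg adjustment over all genes within each of 5 comparisons and a threshold of 0.05. The code of the fit was run on simulated data with independent noise. That run lacked the correlated deviations seen here and gives no support to the calls. Precision is limited by the number of arrays. Nothing in the labels ties samples to separate animals or to the 3 experiments of the design text, so the p-values reflect only spread among these samples, which may be technical.

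Values on every array are given for genes that passed in both genotypes between the fractions, for the SREBP control genes and, in genotype comparisons without a call, for those with the 2 smallest unadjusted p; other genes shown by array were chosen after their values were seen. Promoter windows came from RefSeq. The genes, lists and tests were chosen with earlier results of these data known. Alternatives changed the filter, probeset rule, scaling, variance model, array weights, arrays in the fit and blocking by title number set, and left out each array in turn.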

Additional observations from a re-analysis of the deposited data

How the results depend on the processing

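Each result was recomputed under 22 alternatives (21 for the difference of genotype effects). The counts of 0 genes passing in the genotype comparisons and in their difference stayed at 0 under every alternative run. In the main fit 1 of all genes passed in each genotype comparison and 0 in the difference, and Wnt4 itself did not pass. A count of 0 of 34 therefore does not show that these genes were unchanged. The count of 4 genes in WT cells between fractions was 14 with array weights (all genes: 26.2%), 10 over arrays 9 to 16 only (17%) and 3 to 11 when leaving out 1 array (11.4% to 17.7%), the highest without array 2 (15%). The median change of 0.19 in WT cells was 0.55 over arrays 9 to 16 only and 0.059 to 0.50 when leaving out 1 array. The count of 7 genes in Wnt4-deleted cells was 11 with array weights (all genes: 20.8%), 14 over arrays 9 to 16 only (18%) and 2 to 13 when leaving out 1 array: 13 without array 3 (18.2%), 4 without array 15 (14.5%), 3 without array 11 (12.6%), 3 without array 12 (13.2%) and 2 without array 16 (10.8%). Across all alternatives the median change in Wnt4-deleted cells lay between 0.38 and 0.60. The Elovl1 change in WT cells (0.03) was -0.085 to 0.098 when leaving out 1 array, below 0 without array 14 and without array 9 (-0.039). When leaving out 1 array, the median genotype change was -0.37 (without array 3) to -0.11 (without array 15 or 11) in CD24 low cells, -0.20 (without array 2) to 0.15 (without array 14) in CD24 high cells, and that of their difference (-0.16) was -0.38 (without array 14) to 0.086 (without array 2). The causes were not tested.

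No paired analysis by replicate number was possible because the labels give no number that groups share. The sets of title numbers, which no label calls pairs, were fitted as a block instead. Deviations of arrays of the same set correlated between -0.14 and 0.70 (median 0.14), with 0.70, 0.52 and 0.37 for the WT and Wnt4-deleted CD24 low arrays of the sets in order, and those of arrays from different sets between -0.53 and 0.36 (median -0.07). The fixed and the random block (consensus correlation 0.05) both gave 4 genes passing in WT cells, 8 in Wnt4-deleted cells and 0 between genotypes. In Wnt4-deleted cells the fixed block lost Dhcr7 and added Fdft1 and Srebf1, and the random block added Fdps.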
